A study of Mus musculus with 12 samples.

Results

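The RNA-binding proteins described here set how neurons splice, stabilise and translate their transcripts. The 10 genes were picked by name, with earlier results of these data known, as regulators of neuronal RNA: the polypyrimidine tract-binding repressors Ptbp1 and Ptbp2, the microexon activator Srrm4, the neuronal Hu genes Elavl2, Elavl3 and Elavl4, and the regulators Nova1, Rbfox1, Rbfox3 and Celf4. All 10 were found among the 55487 genes of the RNA-seq table. A gene was tested when it reached at least 1 TPM (a level corrected for transcript length and library total) in at least 3 of the 12 libraries, which held for 8 of the 10 and for 16016 genes in all. Elavl4 and Rbfox3 did not reach this level and are described without a test.

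Cells of mouse cochlear modiolus at postnatal day 4, of both sexes pooled from several animals of mixed C57BL6 and FVB/N background per preparation, were grown as floating glial spheres and then plated under 3 media. The spheres themselves were kept in medium with EGF at 20, bFGF at 10, IGF at 50 and heparan sulfate at 50 ng/ml. The control medium SCDM was based on DMEM/F12 with BDNF and NT3, each at 50 ng/ml, and SCDM/FGF was SCDM with bFGF at 100 ng/ml. The reprogramming medium FIBCL was based on Neurobasal, with bFGF listed at both 50 and 100 ng/ml, 20 μM Forskolin (an activator of adenylyl cyclase), 20 μM ISX9 (a small molecule that promotes neuronal differentiation), 1 μM I-BET (a BET bromodomain inhibitor), 10 μM CHIR99021 (a GSK3 inhibitor) and, by the labels, LIF at 1000 U/ml. The table heads these libraries FIBC, which elsewhere in the study names the mixture without LIF. No BDNF or NT3 is listed for FIBCL. All 4 media held B27 and N2. Plated cells were collected after 14 days. Each of the 4 groups had 3 libraries, labelled as biological replicates. FIBCL and the controls differ in base medium, growth factors and small molecules at once, so the parts of the mixture cannot be told apart.

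In most cells PTBP1 silences neuronal exons, and its paralog PTBP2 takes its place in young neurons. The switch is known to be driven by the microRNA miR-124, which lowers PTBP1 and thereby lifts its repression of a Ptbp2 exon whose loss leads to decay of the Ptbp2 transcript. SRRM4 promotes inclusion of very short neuronal exons, and the repressor REST keeps Srrm4 silent outside neurons. The table holds 1 value per gene, so neither the splicing of any exon nor protein was measured.

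The expression table held from 21625 to 22281 genes above 0 per library, and listed TPM summed to 899295 to 911076 in FIBCL and to 982067 to 994845 in the other libraries. Levels below are TPM rescaled between libraries on the genes expressed in all of them (scaled TPM), as mean ± SD of 3 libraries. Differences are log2 fold changes of scaled TPM + 1 from limma, which understate the change of genes near 0, with Benjamini-Hochberg adjusted p-values. A gene was called higher or lower where the adjusted p was under 0.05 and the log2 fold change was 1 or more in size. Read numbers cannot be recovered from TPM, and the depth of the libraries is unknown. The rescaling matters for small differences. The median log2 fold change of all tested genes between FIBCL and SCDM was −0.07 after it and −0.40 on the deposited TPM.

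The 3 promoter windows below show the sequence in front of a pair of genes that were higher together in FIBCL, Elavl3 and Srrm4, and in front of Ptbp1, which was not. Each is the 250 bases before the RefSeq start on the gene's strand, in mouse build GRCm38.p6, and 9 of the 10 genes had a window in the RefSeq table. Elavl3 is at chr9:22052024-22052273 (minus strand), Srrm4 at chr5:116591818-116592067 (minus strand) and Ptbp1 at chr10:79854182-79854431 (plus strand). Capitals mark matches on either strand to TGACG (the core of a cAMP response element), CAGCTG (an E-box), CAGATG (an E-box of the NeuroD type), ATCAAAG (a TCF/LEF motif) or CAGCACC (the left part of the REST site RE1).
Elavl3: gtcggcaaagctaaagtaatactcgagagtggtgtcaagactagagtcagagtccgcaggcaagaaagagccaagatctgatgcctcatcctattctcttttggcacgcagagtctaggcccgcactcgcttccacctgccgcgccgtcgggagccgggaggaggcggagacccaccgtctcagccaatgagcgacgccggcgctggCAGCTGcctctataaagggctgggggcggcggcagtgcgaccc
Srrm4: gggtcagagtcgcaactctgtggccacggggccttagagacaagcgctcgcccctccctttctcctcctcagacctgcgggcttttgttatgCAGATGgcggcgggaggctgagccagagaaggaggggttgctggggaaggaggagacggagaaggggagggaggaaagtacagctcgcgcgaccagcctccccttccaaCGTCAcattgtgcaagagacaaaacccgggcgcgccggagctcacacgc
Ptbp1: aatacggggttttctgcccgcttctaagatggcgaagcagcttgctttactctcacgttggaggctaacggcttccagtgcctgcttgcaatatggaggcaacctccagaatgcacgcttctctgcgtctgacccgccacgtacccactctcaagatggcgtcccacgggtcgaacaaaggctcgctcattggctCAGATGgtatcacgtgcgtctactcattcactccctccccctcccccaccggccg
In Elavl3 the E-box CAGCTG began 43 bases before the start, and 13% of all 32851 windows held these letters. In Srrm4 the letters CAGATG began 158 bases before the start, and TGACG, read on the opposite strand as CGTCA, began 49 bases before it. In Ptbp1 CAGATG began 55 bases before the start. CAGATG was in 14.4% and TGACG in 17.8% of all windows, so matches of this length are frequent. None of the 3 windows held ATCAAAG, found in 3.21% of windows, or CAGCACC, found in 5.73%. GC content was 61.6% in Elavl3, 63.2% in Srrm4 and 57.6% in Ptbp1, against a median of 52.4% over all windows.

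Across the plated cultures, 4 of the 8 tested genes set FIBCL apart: Elavl2, Elavl3, Srrm4 and Celf4 were called higher there than in SCDM, and 0 genes were called lower by limma. At an unadjusted p under 0.05, 2 were lower. Over all tested genes 13.2% were called higher and 16.2% lower in this comparison. Elavl2, Elavl3 and Srrm4 entered the test through the FIBCL libraries alone, so the count of 4 is a description of these genes and not support for a rule about them. The same 4 were called higher and 0 lower against SCDM/FGF, where 12% of all genes were called higher and 15.8% lower, and against spheres, where 12.5% were called higher and 15.5% lower. Unadjusted p-values under 0.05 with a lower level in FIBCL were found for 4 genes against SCDM/FGF and for 2 against spheres. The controls differed less among themselves. SCDM against spheres gave 1 lower gene, Celf4, and 0 higher ones (3 at an unadjusted p under 0.05), against 5.46% of all genes called lower and 6.94% higher. SCDM/FGF against spheres gave 1 higher gene, Nova1, and 0 lower (2 unadjusted), against 7.39% of all genes called higher and 4.73% lower. SCDM/FGF against SCDM gave 1 higher gene, Rbfox1, and 0 lower (2 unadjusted), against 5.73% and 4.04% of all genes.

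Counted without the limit on size, by adjusted p alone, 5 of the 8 were higher and 2 lower in FIBCL than in SCDM, where 32.7% of all tested genes were higher and 39% lower. Against SCDM/FGF the numbers were 4 and 4 (all genes 32.5% and 38.2%), and against spheres 5 and 2 (32.9% and 38.7%). In SCDM against spheres 3 were higher and 1 lower (24.5% and 25.8%), in SCDM/FGF against spheres 3 and 1 (25% and 25.4%), and in SCDM/FGF against SCDM 3 and 1 (21.8% and 21.3%). Libraries that did not overlap were as common. In FIBCL against SCDM, 5 genes were higher and 2 lower without overlap, beside 34% and 40.7% of all tested genes. The numbers were 4 and 4 against SCDM/FGF (33.7% and 39.2%) and 6 and 1 against spheres (34.6% and 40.4%). For SCDM against spheres, SCDM/FGF against spheres and SCDM/FGF against SCDM they were 3 and 2 each time, beside 28.2% and 30.3%, 27.7% and 29.3%, and 25.5% and 26.1%. Small differences and a lack of overlap were thus frequent among all tested genes too.

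**Figure D1:**
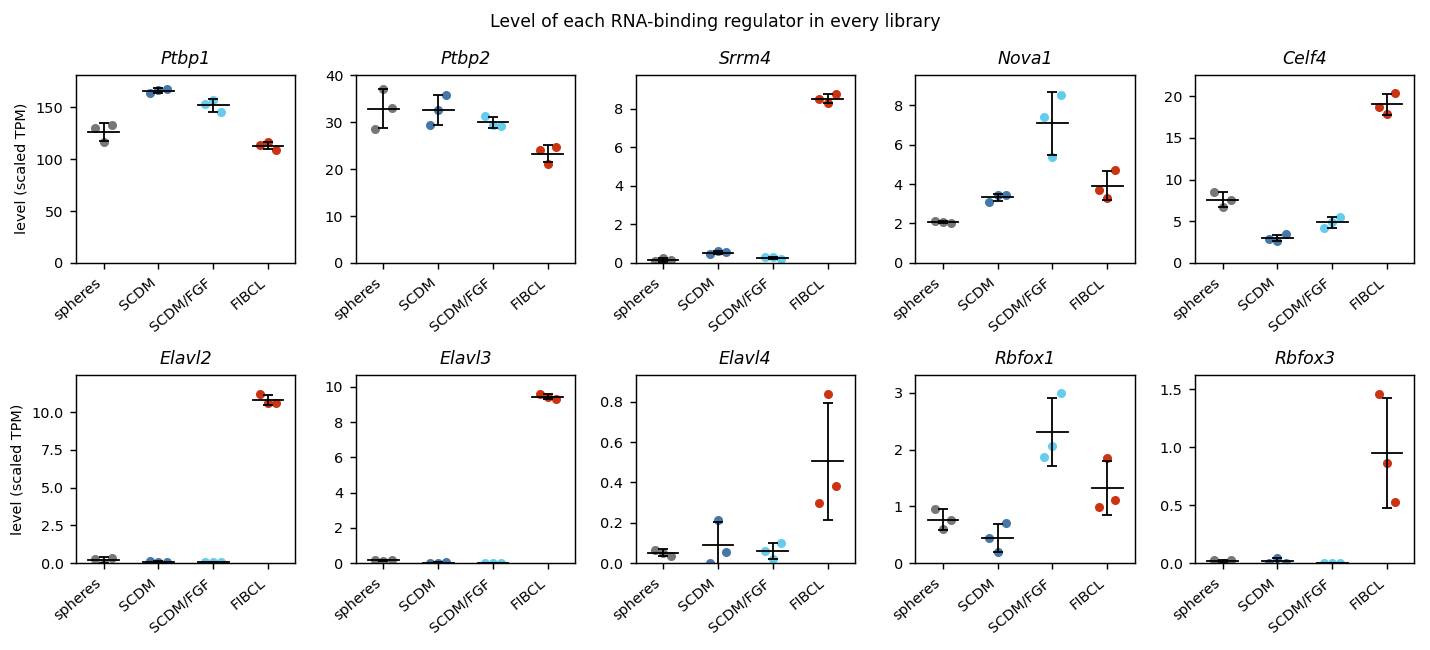
Level of the 10 genes in each library, in scaled TPM on a linear axis that starts at 0 and differs between panels, with 3 libraries per group as points and lines for the mean ± SD. Elavl2, Elavl3 and Srrm4 lay between 8.29 and 11.2 scaled TPM in the FIBCL libraries and at or below 0.616 in all other libraries, while Ptbp1 ranged only from 109 to 168 over all 12.

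Ptbp1, the general repressor of neuronal exons, was the most abundant of the 10 genes in every group (GRCm38 chr10:79854427-79864771, plus strand). Its 3 SCDM libraries held 164, 167 and 168 scaled TPM, and those of SCDM/FGF 154, 157 and 145. The FIBCL libraries held 114, 117 and 109, and the spheres 130, 116 and 133. FIBCL therefore lay below both control media without overlap. The FIBCL and sphere libraries overlapped after the rescaling but not before it, since deposited TPM were 83.1 to 94.9 in FIBCL and 133 to 158 in spheres.

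Relative to SCDM, Ptbp1 in FIBCL differed by −0.55 ± 0.0523 on the log2 scale (SE, adjusted p = 1.88e-06), which did not reach the limit of 1. Against SCDM/FGF the difference of FIBCL was −0.42 (adjusted p = 1.93e-05). Against spheres it was −0.16 (adjusted p = 0.0188), and this p passed 0.05 when any 1 of spheres replicate 1, spheres replicate 3 or FIBCL replicate 3 was left out (up to 0.0857). On the deposited TPM the 3 differences of FIBCL were larger, at −0.95 from SCDM, −0.74 from SCDM/FGF and −0.70 from spheres, and all stayed under the limit. Compared with spheres, Ptbp1 was higher by 0.39 under SCDM (adjusted p = 7.14e-05) and by 0.27 under SCDM/FGF (adjusted p = 0.00131), which were 0.25 and 0.039 on the deposited TPM (adjusted p = 0.0121 and 0.673). SCDM/FGF differed from SCDM, its neighbour at the top of the order, by −0.13 (adjusted p = 0.0708, 95% interval −0.24 to −0.01), and by −0.21 on the deposited TPM (adjusted p = 0.0331). On the annotated genome Ptbp1 overlaps Plppr3, E130317F20Rik and Gm17134 on the opposite strand, and whether the gene levels used strand is not given in the sources used here, which mention only an orientation setting of the alignment.

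Ptbp2, the paralog that follows Ptbp1 in neurons, was lowest in FIBCL (chr3:119718742-119784466, minus strand). FIBCL libraries held 24.2, 21.2 and 24.6 scaled TPM, and SCDM libraries 29.5, 32.5 and 35.8. SCDM/FGF libraries held 31.3, 29.5 and 29.2, and spheres 28.7, 37.1 and 33.0. The FIBCL libraries lay below those of every other group, and the other 3 groups overlapped.

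Ptbp2 in FIBCL differed by −0.47 ± 0.0976 on the log2 scale from SCDM (SE, adjusted p = 0.00115), by −0.35 from SCDM/FGF (adjusted p = 0.00717) and by −0.47 from spheres (adjusted p = 0.00103), all short of the limit of 1. On the deposited TPM these were −0.85, −0.65 and −0.9997, the last just inside the limit. Among spheres, SCDM and SCDM/FGF no difference reached an adjusted p of 0.05 after the rescaling, whereas SCDM/FGF was below spheres by 0.35 on the deposited TPM (adjusted p = 0.00968). SCDM differed from spheres by −0.01 with a 95% interval of −0.22 to 0.21.

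Because both genes are read from the same library, their ratio does not depend on the rescaling. Ptbp2 stood at 20.7% ± 2.27 of Ptbp1 in FIBCL, 19.6% ± 1.67 in SCDM, 19.7% ± 0.882 in SCDM/FGF and 26.3% ± 5.06 in spheres (SD, n = 3 each). The FIBCL ratios of 21.3, 18.2 and 22.6% overlapped those of SCDM, at 18.0, 19.5 and 21.4%. The log2 difference of 0.08 between them gave p = 0.6 in a two-sided exact permutation test, adjusted to 0.621 over the 30 ratio tests made. With 3 libraries against 3 the smallest p this test can give is 0.1. Both control media lay below the spheres without overlap, with log2 differences of −0.41 for SCDM and −0.39 for SCDM/FGF (exact permutation p = 0.1, adjusted p = 0.143, for each). The sphere libraries spread most, from 22.1 to 31.9%. Ptbp3, the remaining paralog, held 33.4 ± 1.10 scaled TPM under FIBCL and 28.7 ± 1.39 under SCDM, a log2 difference of 0.21 (adjusted p = 0.00515) that turned to −0.17 on the deposited TPM.

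Srrm4, the activator of neuronal microexons, was close to 0 outside FIBCL (chr5:116439275-116591817, minus strand, with the antisense gene Srrm4os opposite to it). FIBCL libraries held 8.47, 8.29 and 8.78 scaled TPM. SCDM libraries held 0.438, 0.616 and 0.548, SCDM/FGF libraries 0.284, 0.322 and 0.213, and spheres 0.0762, 0.236 and 0.134. No control library came near a FIBCL library, and the order below FIBCL was SCDM, SCDM/FGF and spheres, the last 2 of which overlapped.

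Srrm4 was higher in FIBCL by 2.63 ± 0.0955 on the log2 scale against SCDM (SE, adjusted p = 4.55e-10), by 2.90 against SCDM/FGF (adjusted p = 2.17e-10) and by 3.05 against spheres (adjusted p = 1.52e-10). The ratio of the mean levels in FIBCL and SCDM was 15.9. SCDM was above spheres by 0.42 (adjusted p = 0.00352), under the limit of 1. SCDM/FGF differed from SCDM by −0.27 (adjusted p = 0.0415), a p that reached up to 0.128 when 1 library was left out. Its paralog Srrm3, which shares the microexon activity, moved beside it. Srrm3 held 6.51, 6.50 and 6.61 scaled TPM in FIBCL against 0.0813 to 0.428 in the other 9 libraries, and was called higher by 2.59 against SCDM (adjusted p = 7.61e-10). Within FIBCL libraries Srrm4 was at 130% ± 2.67 of Srrm3, with values of 130, 127 and 133%. In SCDM the same ratio was 239% ± 129, where both genes were near 0.

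The Hu genes Elavl2, Elavl3 and Elavl4 encode proteins that bind AU-rich elements, stabilise mRNAs in neurons and are used as early neuronal markers, while their paralog Elavl1 is made in nearly all cells. Elavl2 (chr4:91250763-91400785, minus strand) held 11.2, 10.6 and 10.6 scaled TPM in FIBCL. It held 0.133, 0.0934 and 0.0756 in SCDM, 0.0784, 0.0604 and 0.061 in SCDM/FGF, and 0.305, 0.0175 and 0.336 in spheres. All FIBCL libraries were far above the other 9, in which the gene was near 0.

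For Elavl2 the log2 difference was 3.42 ± 0.112 against SCDM (SE, adjusted p = 1.99e-10), 3.47 against SCDM/FGF (adjusted p = 1.93e-10) and 3.29 against spheres (adjusted p = 3.23e-10). Among the 3 control groups its differences lay between −0.18 and −0.05, with adjusted p-values from 0.204 to 0.785.

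Elavl3 (chr9:22015005-22052023, minus strand, overlapping Gm49318 on the same strand) held 9.60, 9.40 and 9.33 scaled TPM in FIBCL. In spheres it held 0.186, 0.149 and 0.160, in SCDM 0.00952, 0 and 0.0756, and in SCDM/FGF 0.0294, 0 and 0. As with Elavl2, all FIBCL libraries were far above the rest. The Elavl3 sphere libraries lay above those of both plated controls, while sphere replicate 2 of Elavl2 (0.0175) lay below them. FIBCL was higher by 3.34 ± 0.0841 against SCDM (SE, adjusted p = 2.45e-11), by 3.37 against SCDM/FGF (adjusted p = 2.52e-11) and by 3.16 against spheres (adjusted p = 4.19e-11). SCDM differed from spheres by −0.18 (adjusted p = 0.0981), although their libraries did not overlap.

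Elavl4 (chr4:110203722-110351909, minus strand) held 0.299, 0.837 and 0.381 scaled TPM in FIBCL and 0 to 0.215 in the other 9 libraries. These values were below the level set for a test, and the FIBCL libraries were the highest 3. In FIBCL the mean levels of Elavl2 (10.8 ± 0.341) and Elavl3 (9.44 ± 0.139) were thus far above that of Elavl4 (0.506 ± 0.290), on the length-corrected scale of scaled TPM.

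The summed TPM of the 3 Hu genes stood at 73.9% ± 4.20 of the ubiquitous Elavl1 in FIBCL, with libraries at 78.6, 72.2 and 70.8%. It was 0.577% ± 0.231 in SCDM, 0.387% ± 0.131 in SCDM/FGF and 1.15% ± 0.514 in spheres. FIBCL did not overlap any other group, and its log2 difference from SCDM was 6.52 (exact permutation p = 0.1, the smallest possible, adjusted p = 0.143). Elavl1 itself held 28.2 ± 1.15 scaled TPM under FIBCL and 38.2 ± 2.50 under SCDM, a difference of −0.43 (adjusted p = 3.01e-05) that was −0.81 on the deposited TPM, under the limit of 1 in both.

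**Figure D2:**
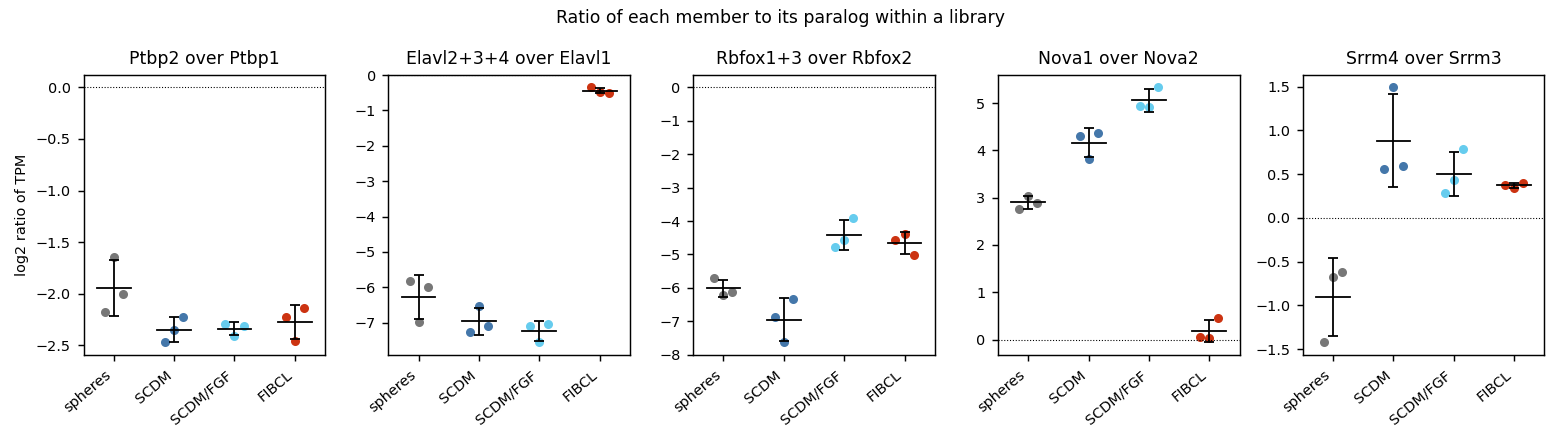
Log2 ratio of deposited TPM (0.1 added to each) between genes of the same family within a library, for 3 libraries per group as points and lines for the mean ± SD, with equality at 0 and an axis that differs between panels. The Hu sum over Elavl1 was between −0.50 and −0.34 in FIBCL and at or below −5.83 in all other libraries, whereas Ptbp2 over Ptbp1 overlapped between FIBCL and both control media.

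Celf4, which acts in neurons on the stability and translation of mRNAs with roles at synapses, was expressed in every group and highest in FIBCL. FIBCL libraries held 18.7, 17.9 and 20.4 scaled TPM, and sphere libraries 8.47, 6.72 and 7.55. SCDM/FGF libraries held 4.21, 4.95 and 5.47, and SCDM libraries 2.87, 2.65 and 3.43. The 4 groups did not overlap, and each step of the order FIBCL, spheres, SCDM/FGF and SCDM passed an adjusted p of 0.05.

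Celf4 was higher in FIBCL by 2.33 ± 0.113 against SCDM (SE, adjusted p = 5.29e-09), by 1.77 against SCDM/FGF (adjusted p = 6.20e-08) and by 1.23 against spheres (adjusted p = 1.58e-06). The call against spheres was lost on the deposited TPM, where the difference was 0.72. Celf4 fell by 1.11 on the log2 scale from spheres to SCDM (adjusted p = 8.86e-06). In SCDM/FGF it was lower than in spheres by 0.55 (adjusted p = 0.00185) and higher than in SCDM by 0.56 (adjusted p = 0.00186), both under the limit. The genome annotation places 2 antisense genes opposite to Celf4.

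Of the other Celf genes, Celf3, Celf5 and Celf6 are mainly neuronal and Celf1 and Celf2 are widely expressed. Celf5 was higher in FIBCL than in SCDM by 3.46 (18.7 ± 2.88 against 0.783 ± 0.0991 scaled TPM), Celf3 by 2.95 (10.2 ± 2.29 against 0.463 ± 0.352) and Celf6 by 2.24 (3.76 ± 0.151 against 0.00635 ± 0.0110). All 3 were called, with adjusted p-values of at most 1.67e-07. Celf1 differed by 0.70 (adjusted p = 5.86e-06) and Celf2 by −0.61 (adjusted p = 2.28e-05), and neither was called. On the deposited TPM the values were 0.31 for Celf1 and −0.997 for Celf2, again not called.

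Nova1, a splicing regulator of neuronal synaptic transcripts, did not follow the Hu genes (chr12:46694517-46818929, minus strand). SCDM/FGF libraries held 7.38, 5.35 and 8.51 scaled TPM, above all others. FIBCL libraries held 3.72, 3.31 and 4.72, SCDM libraries 3.11, 3.44 and 3.42, and spheres 2.11, 2.06 and 2.04. SCDM/FGF was highest and the spheres lowest, and FIBCL and SCDM overlapped.

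Nova1 rose by 1.38 ± 0.147 from spheres to SCDM/FGF (SE, adjusted p = 1.35e-05). SCDM/FGF was above SCDM by 0.88 (adjusted p = 0.000488), which stayed under the limit of 1 unless SCDM/FGF replicate 2 was left out (1.05). FIBCL differed from SCDM by 0.18 (adjusted p = 0.301, 95% interval −0.15 to 0.50) and by −0.14 on the deposited TPM, so no direction can be given. From SCDM/FGF it differed by −0.71 (adjusted p = 0.00113) and from spheres by 0.67 (adjusted p = 0.00161), again under the limit. The difference from spheres was 0.26 on the deposited TPM (adjusted p = 0.109).

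The paralog Nova2, also a neuronal gene, had another pattern. FIBCL libraries held 3.60, 3.23 and 3.39 scaled TPM of Nova2, and the remaining 9 libraries 0.0667 to 0.237. It was called higher in FIBCL by 2.00 against SCDM (adjusted p = 2.85e-09). In log2 units Nova1 exceeded Nova2 by 4.16 ± 0.309 under SCDM and 5.06 ± 0.239 under SCDM/FGF, but by 0.18 ± 0.243 under FIBCL, where the pair was nearly level. Nova2 was near 0 in both control media, so the size of the ratio there depends on the 0.1 added to TPM. Without it, Nova1 was at 2165 to 4671% of Nova2 in SCDM and at 103 to 139% in FIBCL. The FIBCL ratios lay below those of every other group (exact permutation p = 0.1, adjusted p = 0.143, in each comparison).

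The Rbfox proteins bind GCAUG and regulate neuronal and muscle exons, and RBFOX3 is the antigen NeuN of mature neurons. Rbfox1 (chr16:5885355-7411526, plus strand) was low throughout and highest in SCDM/FGF, with 1.86, 2.07 and 2.99 scaled TPM. FIBCL libraries held 0.993, 1.86 and 1.12, spheres 0.949, 0.594 and 0.764, and SCDM libraries 0.438, 0.205 and 0.699. SCDM/FGF exceeded SCDM and spheres without overlap, but its lowest library was only just above the highest of FIBCL.

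Rbfox1 rose by 1.19 ± 0.184 from SCDM to SCDM/FGF (SE, adjusted p = 0.000292). From spheres to SCDM/FGF the difference was 0.89 (adjusted p = 0.00187), and from SCDM to FIBCL it was 0.68 (adjusted p = 0.00619). Against SCDM/FGF, FIBCL differed by −0.51 (adjusted p = 0.0273), and the p passed 0.05 without SCDM/FGF replicate 3, FIBCL replicate 1 or FIBCL replicate 3 (up to 0.110). FIBCL differed from spheres by 0.38 (adjusted p = 0.0861, and 0.11 on the deposited TPM) and SCDM from spheres by −0.30 (adjusted p = 0.205), and neither reached 0.05.

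Rbfox3 (chr11:118489762-118911597, minus strand) held 1.46, 0.862 and 0.526 scaled TPM in FIBCL. It was listed at 0 in all 3 SCDM/FGF libraries and was at most 0.0467 in SCDM and 0.0254 in spheres. The FIBCL libraries were the highest 3 and spread by more than a factor of 2. Rbfox2, the widely expressed paralog, held 59.1 ± 1.99 scaled TPM under FIBCL and 65.0 ± 3.05 under SCDM (log2 difference −0.13, adjusted p = 0.116, and −0.53 with adjusted p = 0.000267 on the deposited TPM). Rbfox1 and Rbfox3 together made 3.83% ± 0.885 of Rbfox2 in FIBCL, 4.64% ± 1.58 in SCDM/FGF, 0.721% ± 0.366 in SCDM and 1.41% ± 0.304 in spheres.

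**Figure D3:**
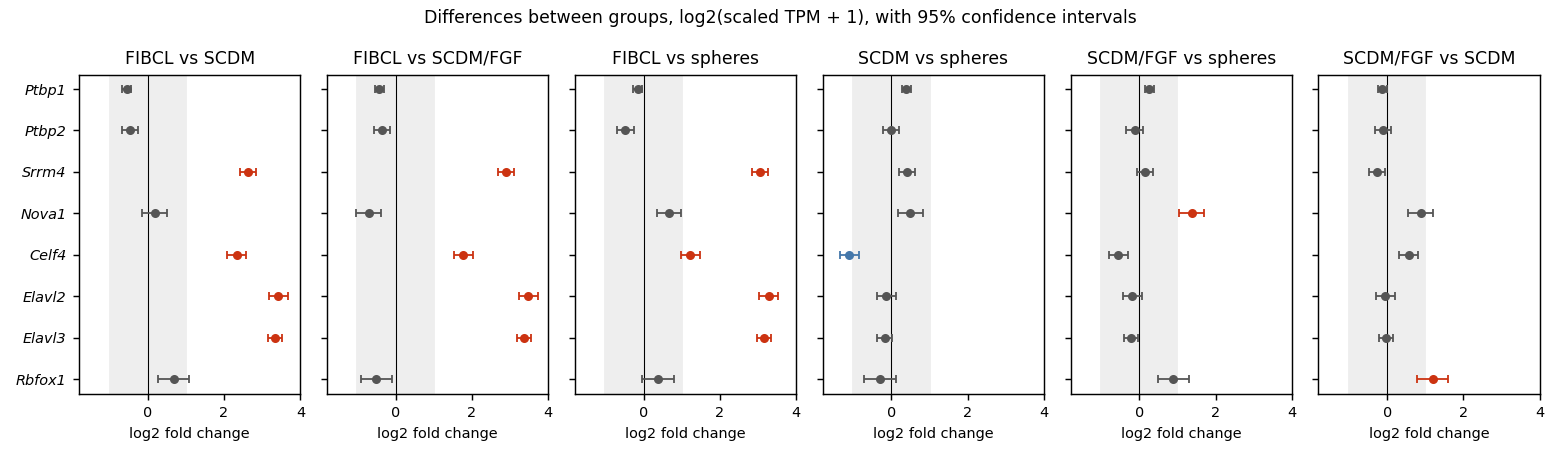
Log2 fold change of scaled TPM + 1 for the 8 tested genes in the 6 comparisons, with 95% confidence intervals from limma. The grey band spans −1 to 1, red points were called higher and blue points lower. Elavl2, Elavl3, Srrm4 and Celf4 were called higher in the 3 panels with FIBCL, and Celf4 lower in SCDM against spheres.

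Markers of several cell types also differed between the groups, in orders that were not the same from type to type. The summed level of 12 neuron markers was 1250 to 1292 scaled TPM in FIBCL, 286 to 299 in SCDM, 150 to 189 in SCDM/FGF and 350 to 373 in spheres. Of the 11 tested, 10 were called higher in FIBCL than in SCDM and 1, Gap43, was called lower (by 1.38). Snap25, among the 10, entered the test through the FIBCL libraries alone. Uchl1 made 49.1% of the FIBCL sum, and without it the range was 634 to 660 in FIBCL and at most 222 elsewhere. Dcx, a marker of young neurons, was at or near 0 throughout, with at most 0.0739 in FIBCL and 0.0857 in any library. The 10 glial markers summed to 17.4 to 23.8 in FIBCL, 204 to 237 in SCDM, 205 to 230 in SCDM/FGF and 599 to 625 in spheres. The 11 mesenchyme markers summed to 244 to 263 in FIBCL, 6099 to 6324 in SCDM, 3736 to 4304 in SCDM/FGF and 8201 to 8882 in spheres, although the cultures are named glial. Otor made 79.6% of the sphere sum, and without it the order among the controls turned, with 5168 to 5558 in SCDM, 3577 to 4103 in SCDM/FGF, 1653 to 1758 in spheres and 243 to 262 in FIBCL. In FIBCL 8 of the 11 were called lower than in SCDM, and Twist1, Prrx1 and Coch were called higher, by 1.18, 1.88 and 1.42, of which the call of Twist1 was lost on the deposited TPM (0.78). The 10 macrophage markers summed to 169 to 199 in FIBCL, 1811 to 2022 in SCDM, 2022 to 2193 in SCDM/FGF and 142 to 183 in spheres, so they were highest in the 2 groups in which Ptbp1 was highest. The FIBCL sum was nearly all Cd68, at 152 to 177, and against spheres 6 of the 10 were called lower in FIBCL and 1, Cd68, higher. Of the 5 endothelial markers Cdh5 alone was high in SCDM/FGF, where Nova1 and Rbfox1 were highest, at 34.3 to 38.7 against at most 7.55 elsewhere. The other 4 together summed to 1.82 to 2.83 there, and were lowest in that group. The 5 smooth muscle markers summed to 209 to 294 in SCDM and at most 35.3 elsewhere. Of the 5 hair cell markers only Myo7a reached the level for a test, with 35.1 to 45.6 in SCDM and at most 12.6 elsewhere, while Pou4f3 was at 0 in all controls and at most 0.999 in FIBCL, and the 5 melanocyte markers together stayed at or below 9.48. The 9 skeletal muscle markers, relevant because Rbfox1 and several Celf genes act in muscle too, summed to at most 4.18 in any library, and Myf5 was listed at 0 in all 12. The part of these cell types in the differences above was not tested. In bulk RNA, more cells of a type and more RNA per cell cannot be told apart.

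The 10 paralogs of these genes, all tested, hold the neuronal Celf3, Celf5, Celf6, Nova2 and Srrm3 beside widely expressed genes. Against SCDM, 5 were called higher in FIBCL (Celf3, Celf5, Celf6, Nova2 and Srrm3) and 0 lower, beside 13.2% and 16.2% of all tested genes. By adjusted p alone 7 were higher and 2 lower, beside 32.7% and 39%. Of the 5, 4 (all but Celf5) entered the test through the FIBCL libraries alone. This count is therefore a description, and no median is given. The genes not called were Celf1, Celf2, Elavl1, Ptbp3 and Rbfox2. The paralogs gave 5 higher and 0 lower against SCDM/FGF (all genes 12% and 15.8%) and against spheres (12.5% and 15.5%) too. By adjusted p alone 8 were higher and 2 lower against SCDM/FGF (all genes 32.5% and 38.2%), and 7 and 2 against spheres (32.9% and 38.7%). On the deposited TPM Celf2 was called lower in FIBCL than in spheres (−1.03). Among the 3 control groups none of the 10 was called by limma, and at an unadjusted p under 0.05 there were 2 higher and 1 lower in SCDM against spheres, 1 and 1 in SCDM/FGF against spheres, and 1 and 1 in SCDM/FGF against SCDM.

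**Figure D4:**
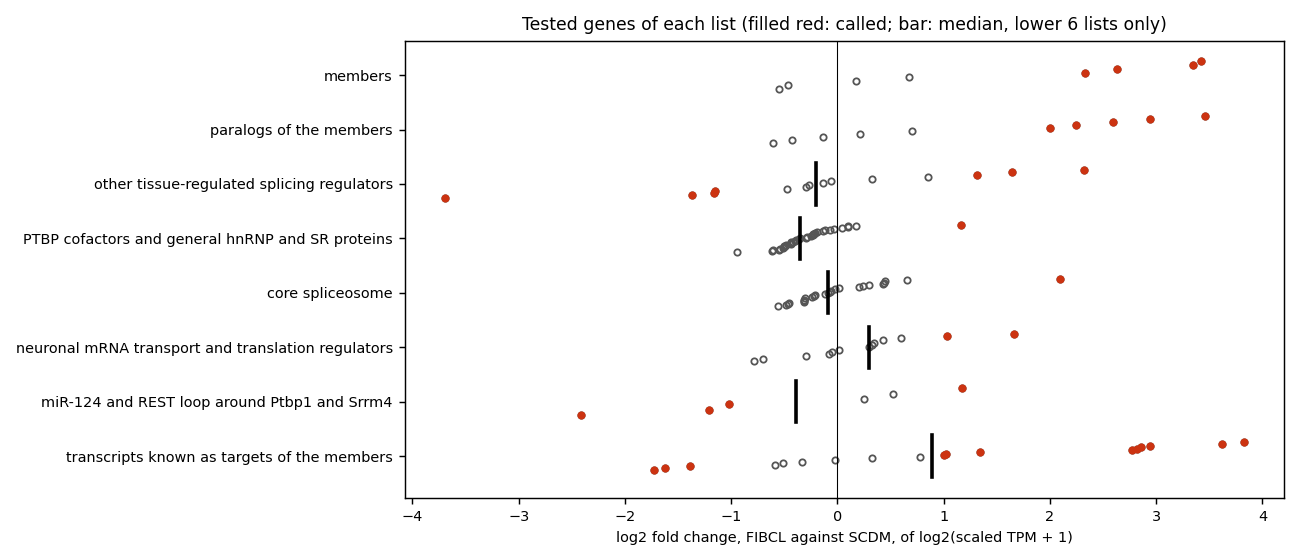
Log2 fold change between FIBCL and SCDM of every tested gene in 8 lists, with called genes in red, the others as open circles and a bar at the median of each list (not drawn for the first 2 lists, whose genes partly entered the test through FIBCL alone). Rbm24, Nanos1 and Ache, from the other lists, entered the test in the same way. The members and their paralogs held 9 of the called genes on the right, and each of the 2 lists of general splicing factors held 1 called gene.

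Other tissue-regulated splicing regulators went both ways. Of 14 tested, 3 were called higher in FIBCL than in SCDM and 4 lower, beside 13.2% and 16.2% of all tested genes. The median was −0.20. Against SCDM/FGF 1 was called higher and 3 lower (all genes 12% and 15.8%), and against spheres 1 and 3 (12.5% and 15.5%). Rbm24 entered the test through the FIBCL libraries alone. Khdrbs3 (SLM2, a neuronal splicing regulator) was higher by 2.32 (51.9 ± 0.408 against 9.72 ± 2.03 scaled TPM) and its relative Khdrbs2 by 1.64. SCDM was the lowest group for Khdrbs2, and its libraries scattered, with 0.0571, 1.49 and 0 scaled TPM. Khdrbs2 held 3.33 ± 0.598 in FIBCL, 2.51 ± 0.266 in spheres and 2.23 ± 0.206 in SCDM/FGF. Mbnl1, a muscleblind protein that promotes mature splicing patterns, was lower by 3.69 on the log2 scale (11.3 ± 1.20 against 158 ± 5.92), and Mbnl2 by 1.37. SCDM was the highest group for Mbnl1, which held 57.2 ± 3.26 in spheres and 50.4 ± 3.61 in SCDM/FGF.

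Few general splicing factors were called in FIBCL against SCDM, where 13.2% of all tested genes were called higher and 16.2% lower. Of the 35 PTBP cofactors and general hnRNP and SR proteins, Raver2 (a cofactor of PTBP1) was the only one called higher in FIBCL, by 1.16, and the call was lost on the deposited TPM (0.81). None was called lower by limma, because none fell by 1 or more. By adjusted p alone 2 were higher and 26 lower, beside 32.7% and 39% of all tested genes, and the median was −0.35. On the deposited TPM the median was −0.75 and 3 were called lower. Of 25 core spliceosome genes, Snrpn was called higher by 2.10 (36.5 ± 2.17 against 7.76 ± 0.191 scaled TPM) and 0 lower, with a median of −0.09. By adjusted p alone 7 were higher and 12 lower. Snrpn encodes SmN, the neuronal form of a core Sm protein, and shares its transcript with Snurf, so reads of the pair could be divided between them.

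Among 13 regulators of mRNA transport and translation in neurons, 2 were called higher and 0 lower. By adjusted p alone 7 were higher and 3 lower, beside 32.7% and 39% of all tested genes. Over all tested genes, 13.2% were called higher and 16.2% lower. The median of the list was 0.30 after the rescaling and −0.10 on the deposited TPM, so no direction can be given for it. On the deposited TPM 1 gene was called higher and 1 lower. Cpeb2, which controls cytoplasmic polyadenylation, was higher in FIBCL by 1.66 (17.1 ± 0.354 against 4.74 ± 0.426 scaled TPM). Nanos1, a translational repressor, entered the test through the FIBCL libraries alone and was higher by 1.03, a call that was lost on the deposited TPM (0.77).

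The regulatory loop that links miR-124 and REST to Ptbp1 and Srrm4 held 8 genes, of which 6 were tested. In FIBCL against SCDM 1 was called higher and 3 lower, beside 13.2% and 16.2% of all tested genes. Against SCDM/FGF the numbers were 1 and 2 (all genes 12% and 15.8%), and against spheres 1 and 3 (12.5% and 15.5%). The small phosphatases that act with REST were all called lower in FIBCL than in SCDM. Ctdsp2 fell by 2.42 against SCDM (20.7 ± 0.511 against 115 ± 3.58 scaled TPM), Ctdsp1 by 1.21 and Ctdspl by 1.02. The corepressor Rcor2 was called higher by 1.17, a call lost on the deposited TPM (0.80). The list's median was −0.39. Rest itself and the miR-124 host genes, named here after their values were seen, were not called or not tested. Rest held 22.6 ± 1.10 scaled TPM under FIBCL and 15.4 ± 0.311 under SCDM, a difference of 0.52 (adjusted p = 1.05e-05) that was 0.14 on the deposited TPM (adjusted p = 0.118). Against spheres the difference of Rest in FIBCL was 0.19 after the rescaling and −0.33 on the deposited TPM, so no direction can be given there. The host transcript Mir124a-1hg held 0.562, 0.345 and 0.289 scaled TPM in FIBCL and at most 0.0374 elsewhere, while Mir124-2hg was at most 0.151 in any library. Mature microRNAs are not captured by the poly(A)-selected libraries.

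Transcripts known as targets of the 10 proteins were read only as gene totals. Of 18 tested, 9 were called higher in FIBCL than in SCDM and 3 lower, beside 13.2% and 16.2% of all tested genes. The median of the list was 0.89. On the deposited TPM 7 were called higher and 3 lower, with a median of 0.51. Against SCDM/FGF the median was 0.22 after the rescaling and −0.09 on the deposited TPM. Ache entered the test through the FIBCL libraries alone. Dab1, the reelin adaptor whose exons NOVA regulates, was higher in FIBCL than in SCDM by 3.83 (14.2 ± 2.51 against 0.0597 ± 0.0138 scaled TPM). Marcks, a substrate of protein kinase C, was lower by 1.72 (65.2 ± 0.620 against 218 ± 10.9). The transcription factor gene Mef2c was lower by 1.63 (5.32 ± 1.52 against 18.2 ± 1.77). SCDM was the highest group for both Marcks and Mef2c.

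The genes whose levels ran most closely with each regulator were found by Pearson's r of log2(scaled TPM + 1) over the 12 libraries, among 11132 genes with a mean of at least 5 scaled TPM. This is a description, because the 12 libraries share 4 groups and any gene confined to 1 group runs with the rest of that group. Elavl2 and Elavl3 had the same pair, Dsp (desmoplakin, r = 0.998 and 0.999) and Ppp2r2c (a brain-enriched regulatory subunit of protein phosphatase 2A, r = 0.998 and 0.999). Dsp was at 29.3 scaled TPM in FIBCL and at most 0.130 as a mean of any other group. Srrm4 ran with Impdh1 (r = 0.999) and Sez6l2 (r = 0.995), and Celf4 with Stac2 and Ube2d1 (r = 0.992 each). Ptbp1 ran with the RNA helicase gene Ddx3x (r = 0.979) and with the macrophage marker Adgre1 (r = 0.978), whose mean was 199 in SCDM, 86.6 in SCDM/FGF, 12.1 in spheres and 3.39 in FIBCL. The closest genes were looser for Ptbp2 (Cnot6l, r = 0.957, and Rpp14, r = 0.939), Nova1 (Slc25a25, r = 0.967, and Fblim1, r = 0.949) and Rbfox1 (Yaf2, r = 0.932, and Cdkn2d, r = 0.929).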

How the data were processed

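RNA-seq libraries were prepared from poly(A)-selected RNA of 12 cultures (TruSeq kit). Per the study's methods, the authors used SeqPrep and Sickle for trimming, TopHat for alignment and RSEM for gene levels, which they deposited as TPM with 2 decimals. The genome build is not given in the sources used here, and positions are from GENCODE M21 (GRCm38), matched by Ensembl identifier. The table names the FIBCL columns FIBC, a name that the study also gives to the mixture without LIF. They were assigned to FIBCL as the only such group in the labels, and whether these libraries had LIF rests on the labels. A count model was not used, since TPM are not counts.

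Each library was divided by its trimmed mean ratio (log2, 30% off each end) to the mean library, taken from 8434 genes with at least 5 TPM throughout. Log2(scaled TPM + 1) was fitted with limma 3.58.1 in R 4.3.3 using a variance trend, in 1 model of 4 groups and 6 comparisons, without covariates and with Benjamini-Hochberg adjustment within each comparison. P-values measure the spread between libraries, which the labels name biological replicates. Ratios within a library (0.1 added to TPM) were compared by exact permutation tests in SciPy 1.17.1. The code was tested on simulated data. The members and lists were chosen with earlier results of these data known. In each list other than members and paralogs, the 2 highest and 2 lowest called genes between FIBCL and SCDM were named, except for 1 item that is not reported here. The alternatives changed the scaling, pseudocount, filter, limits, samples, replicate block and variance trend, 1 at a time. Marker sums without their most abundant gene were added after the data were seen.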

Additional observations from a re-analysis of the deposited data

Results flagged for a closer look

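Rbfox1 differed between the 2 control media. Its change from spheres was 0.89 in SCDM/FGF and −0.30 in SCDM, and the difference of 1.19 on the log2 scale was tested directly by limma (adjusted p = 0.000292). It stayed between 1.05 and 1.31 when each library was left out in turn.

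Elavl4 and Rbfox3 were outside the tests because they were below the level set for them, yet both had signal in FIBCL. Elavl4 averaged 0.506 scaled TPM in FIBCL, with the highest control library at 0.215. Rbfox3 averaged 0.949 scaled TPM in FIBCL, with the highest control library at 0.0467.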

How the results depend on the processing

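The counts of 4 called genes in each FIBCL comparison were within 1.5 times of this under all alternatives but adjusted p alone, which gave 7 against SCDM, 8 against SCDM/FGF and 7 against spheres. The counts of 1 called gene among the controls were less stable. In SCDM against spheres the count was 3 with a pseudocount of 0.1, 0 with a limit of 1.5 and 4 with adjusted p alone, and SCDM/FGF against spheres gave 3, 0 and 4. SCDM/FGF against SCDM gave 2 with a pseudocount of 0.1, 0 with a limit of 1.5, 4 with adjusted p alone, 0 with a filter of 5 TPM, which drops Rbfox1, and 1 to 2 when each library was left out. Over all genes, 4695, 4459 and 4496 were called in FIBCL against SCDM, SCDM/FGF and spheres, and 1986, 1942 and 1564 in SCDM and SCDM/FGF against spheres and SCDM/FGF against SCDM. A limit of 1.5 gave 2862, 2686, 2554, 990, 968 and 777, and adjusted p alone 11480, 11327, 11470, 8054, 8075 and 6910. On the deposited TPM, Nova1 in FIBCL against SCDM turned to −0.14 (adjusted p = 0.399), and Celf4 in FIBCL against spheres dropped to 0.72.

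Some differences, not all of them near 0, changed sign. Leaving out each library, Ptbp2 in SCDM against spheres ranged from −0.10 to 0.076, and Elavl3 in SCDM/FGF against SCDM ranged from −0.045 to 0.0071. The log2 ratio of Ptbp2 over Ptbp1 ranged from −0.0025 to 0.15 in FIBCL against SCDM/FGF and from −0.048 to 0.075 in SCDM/FGF against SCDM. Rbfox1 and Rbfox3 over Rbfox2 ranged from −0.41 to 0.022 in FIBCL against SCDM/FGF, and Srrm4 over Srrm3 from −0.24 to 0.012. With 1 added to TPM in place of 0.1, the Hu sum over Elavl1 in SCDM/FGF against SCDM went from −0.28 to 0.084. Srrm4 over Srrm3 went from −0.13 to 0.20 in FIBCL against SCDM/FGF. In FIBCL against SCDM that ratio went from −0.51, with libraries that did not overlap, to 0.018, and both genes were near 0 in SCDM. The cause was not tested.

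Whether the replicate numbers pair the libraries is not known. Same-numbered libraries of different groups correlated by −0.15 to 0.16 in their deviations from the group means, with 4 of 18 pairs over 0.1. For libraries of different numbers the range was −0.16 to 0.16, with 3 of 36 pairs over 0.1. With the replicate block the counts were 4, 4, 4, 1, 1 and 1, as without it. Unknown depth limits statements on Elavl4, Rbfox3 and other genes near 0.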

Other observations

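Gphn, which encodes gephyrin and is in the list of known targets, stood far above the level of the other listed targets. It was listed at 43747, 44839 and 54081 scaled TPM in FIBCL, 5479 to 6959 in SCDM, 5061 to 7644 in SCDM/FGF and 977 to 2097 in spheres. On the deposited scale it took 36408 to 41163 TPM of each FIBCL library. How the reads lie along this gene was not tested, since the table holds 1 value per gene. Whether the listed value reflects gephyrin transcripts is therefore not known.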
